A study of Mus musculus with 4 samples.

Results

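Mammary organoids of Brca2mut/WT mice were compared with mammary organoids of wild-type mice after both had been exposed to hydroxyurea (HU), with 1 droplet single-cell RNA library on each side. The cells compared were those of the library labelled Brca2mut/WT HU and of the library labelled wild-type HU that had 1000 to 6000 detected genes and under 5% of their unique molecular identifiers (UMIs, the tags by which single transcripts are counted) on mitochondrial genes. These were 3293 and 4617 cells, 7910 of the 17360 cells that passed in the 4 libraries of the series. The Brca2mut/WT mice carried 1 germline truncating Brca2 allele in every tissue, and the wild-type mice were littermates; all were females, and the mice behind the organoids of the prolonged exposure were 9 to 11 months old. HU was given at 1 mM for 24 h with 4 days of recovery before passaging, and this was repeated over serial passages. Organoids frozen at the first and at a later passage were thawed, regrown and dissociated. Each HU library may therefore hold both organoids exposed once and organoids exposed repeatedly. The other 2 libraries held organoids of the same genotypes without HU. They share no library with the HU comparison, so their values stand beside it, although the same mice may have supplied both.

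BRCA2 acts in homologous recombination, which repairs double-strand breaks, and it shields stalled replication forks from being degraded. HU blocks ribonucleotide reductase, so that the pool of deoxynucleotides runs down and forks stall. The mammary epithelium has an outer layer of contractile basal cells, which make keratin 14, and an inner layer of luminal cells of different kinds. Hormone receptor positive (HR+) luminal cells carry the oestrogen and progesterone receptors and secrete amphiregulin, whereas hormone receptor negative (HR-) luminal cells include the alveolar progenitors that make milk. Interferon-stimulated genes are a set of antiviral genes that type I interferons switch on, and DNA that leaks from a damaged nucleus is among the known triggers of interferon production.

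Lineages were set per cell from CPM, the UMIs of a gene scaled to 1000000 UMIs of the cell or group of cells: basal from 500 CPM of Krt14, HR+ luminal from 300 CPM of Areg, and HR- luminal below 300 CPM of both. Because 1 library stood for each genotype, no test of the genotype was possible, and the intervals given cover counting error only. A gene was compared where it reached 20 CPM in either HU library, and it is called higher or lower where the difference passed 1.5-fold on the scale of log2(CPM + 1). A gene under 20 CPM in 1 library was therefore compared only through the other, which can raise counts of higher and of lower genes. Each library was also split by 4 antibody tags that had been used to pool cells. What each tag stands for is not given in the sources used here, so tags are read as parts of a library that may be mice or passages, never as replicates. The sample titles give a number of replicates per library and the paper a different number of mice per condition, each above 1. By the paper's account each library therefore pools several mice. Tag pools are called separate where each usable pool of one library, with at least 20 cells of the lineage, lay above each of the other. Genes are numbered and placed by GENCODE M21 on GRCm38.

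The wild-type HU library gave 3457 HR- luminal, 896 basal and 174 HR+ luminal cells, and the Brca2mut/WT HU library gave 2750, 337 and 140. A further 28 and 17 cells met both the basal and the HR+ gate and were counted in each of these lineages, and 118 and 83 cells met none. Median depth of the HR- luminal cells was 24963 UMIs in wild-type HU and 27595.5 UMIs in Brca2mut/WT HU. Among basal cells it was 21577 and 21726 UMIs, so depth was close between the libraries there. The HU libraries shared 16 cell barcodes, within the 16 to 30 that any pair of the 4 libraries shared.

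The gates were checked against lineage markers. Krt5, a basal keratin that no gate used, stood at 2379 CPM in wild-type HU and 2110.3 CPM in Brca2mut/WT HU in basal cells, against 29.8 and 19.1 CPM in HR- luminal cells. Csn3, which encodes kappa-casein, stood at 18872 and 19499.7 CPM in HR- luminal cells, against 1211 and 1212 CPM in basal cells. Prlr, the prolactin receptor, stood at 933 and 1156 CPM in HR+ luminal cells. In that gate Krt5 stood at 318 CPM in wild-type HU and 11.3 CPM in Brca2mut/WT HU, so the wild-type HR+ gate held basal transcripts. Not every marker followed its gate. Aldh1a3, chosen for HR- luminal cells, stood at 31.5 and 18 CPM there and at 49.8 and 31.7 CPM in HR+ luminal cells. Prom1, chosen for HR+ luminal cells, stood at 13.1 and 5.46 CPM there and at 4.09 and 6.34 CPM in HR- luminal cells. Of 15 markers of stromal, immune and endothelial cells, none reached 20 CPM in HR- luminal or basal cells, and 1 did in HR+ luminal cells. This was Dcn, at 1028 CPM in wild-type HU and 938 CPM in Brca2mut/WT HU. In HR+ luminal cells of wild-type HU the 15 markers summed to 1704 CPM in tag 2 and 10.4 CPM in tag 4.

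Composition by lineage differed between the libraries, but it differed as much between tags of a library. HR- luminal cells made up 74.9% of the wild-type HU cells (exact 95% interval 73.6 to 76.1) and 83.5% of the Brca2mut/WT HU cells (82.2 to 84.8). In wild-type HU the share was 88.2%, 60.2%, 92.3% and 61.2% in tags 1 to 4, and in Brca2mut/WT HU it was 89.3%, 94.1%, 88.8% and 51.2%. Tags 1 and 3 were therefore close between the genotypes and the ranges overlapped, with the lowest share of all in a Brca2mut/WT pool. The tag whose share differed most between the libraries was tag 2, and nothing in the sources used here ties a tag of one library to the same number in the other.

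**Figure D1:**
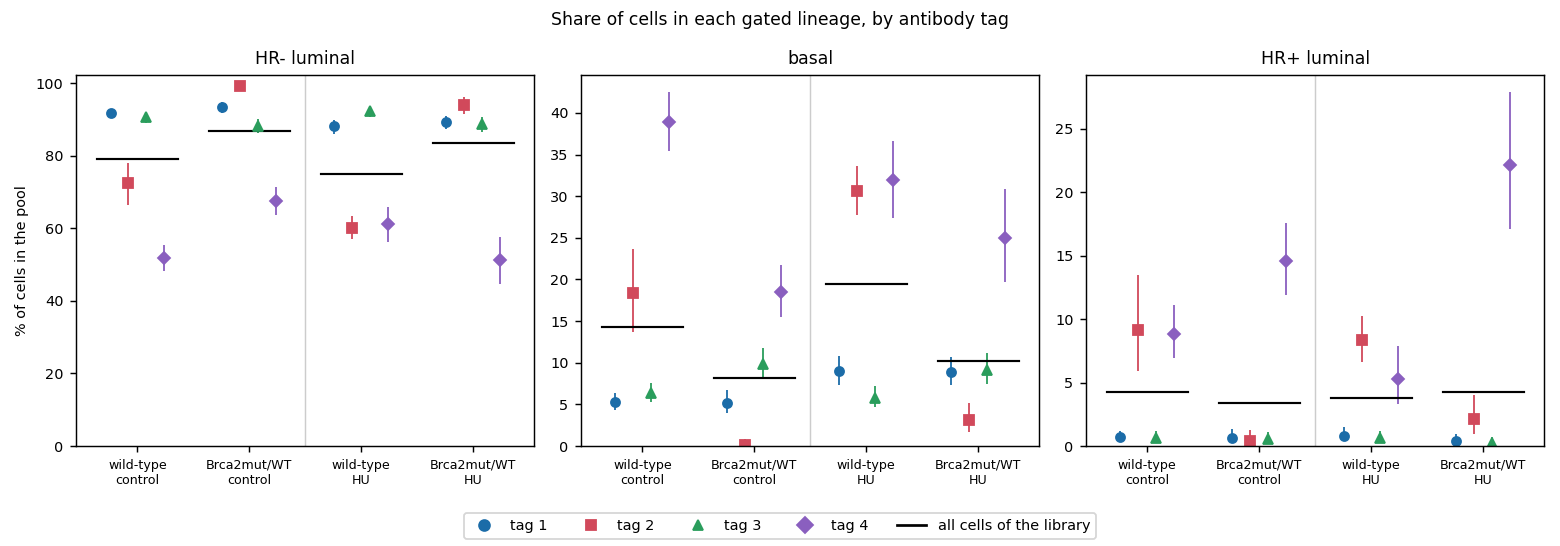
Share of cells in each gated lineage, in percent, for the 4 antibody tags of wild-type HU and Brca2mut/WT HU, with exact 95% binomial intervals that cover counting error only. Tag 2 stands at 60.2% HR- luminal cells in wild-type HU and 94.1% in Brca2mut/WT HU, while tags 1 and 3 lie between 88.2% and 92.3% in both libraries.

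Basal cells were fewer, at 10.2% of the Brca2mut/WT HU cells against 19.4% of the wild-type HU cells. By tag the share was 8.96%, 30.6%, 5.82% and 31.9% in wild-type HU and 8.89%, 3.07%, 9.16% and 25% in Brca2mut/WT HU, again with overlapping ranges. Cells without a tag were part of the gap: 45% of 500 untagged wild-type HU cells were basal, against 13.6% of 353 in Brca2mut/WT HU. HR+ luminal cells made up 3.77% of wild-type HU and 4.25% of Brca2mut/WT HU cells. Their largest pools were tag 2 in wild-type HU, at 8.32% of its cells, and tag 4 in Brca2mut/WT HU, at 22.1%. Under 5000 UMIs were 14 of the 174 HR+ luminal cells of wild-type HU and 38 of the 140 of Brca2mut/WT HU. The HR+ gate was met by 1 Areg UMI in 9 and 19 cells, so shallow cells weighed more in Brca2mut/WT HU. In the untreated libraries HR- luminal cells were 79.2% of wild-type control and 86.8% of Brca2mut/WT control cells, so the order of the genotypes was the same without HU.

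Brca2 itself was scarce. HR- luminal cells had 5.13 CPM in wild-type HU (exact 95% interval 4.66 to 5.63, 440 UMIs) and 3.90 CPM in Brca2mut/WT HU (3.45 to 4.39, 277 UMIs), and the untreated libraries had 5.46 and 4.32 CPM. By tag the level was 5.75, 4.49, 5.22 and 3.69 CPM in wild-type HU and 4.04, 3.14, 3.76 and 3.42 CPM in Brca2mut/WT HU. The highest Brca2mut/WT pool lay above the lowest wild-type pool, so the pools overlapped. In basal cells Brca2 stood at 7.41 CPM (6.26 to 8.71) against 4.78 CPM (3.33 to 6.65). By tag it stood at 6.5, 5.84, 6.42 and 7.16 CPM in wild-type HU. The 3 usable Brca2mut/WT HU pools stood at 4.24, 4.89 and 5.39 CPM, below every wild-type pool. These 3 pools held only 10, 10 and 9 UMIs, and the counting interval of each covered every wild-type pool level. Without HU the basal pools overlapped, at 3.3, 4.49, 7.93 and 5.06 CPM in wild type and 6.41, 5.15 and 5.48 CPM in Brca2mut/WT. Transcripts of a truncated allele can still be counted, so the level does not give the amount of intact transcript, and at under 20 CPM the gene was outside the genes compared.

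In HR- luminal cells the HU libraries were close. Of 5402 genes compared, 99.1% lay within 1.5-fold, 25 were higher in Brca2mut/WT HU (0.463% of the genes compared) and 22 were lower (0.407%). Of the higher genes 4 had separate tag pools (0.0740%), and of the lower genes 7 did (0.130%), Krt14 with them, which set the gate. Past 2-fold were 11 genes higher and 8 lower. Small shifts without regard to size were more common upward: the pools of Brca2mut/WT HU lay above all pools of wild-type HU for 226 genes (4.18%) and below for 34 (0.629%), beside a median log2 ratio of 0.041 over all genes compared.

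Apart from the gate gene, 10 genes in HR- luminal cells passed 1.5-fold with separate pools, 4 of them higher and 6 lower. Gm10076, a non-coding locus (chr14:105681828-105682211, plus strand), stood at 475, 454, 486 and 422 CPM in the 4 wild-type pools and 944, 665, 957 and 848 CPM in the 4 Brca2mut/WT pools. The lowest Brca2mut/WT pool exceeded the highest wild-type pool, and the libraries differed 1.91-fold (counting interval 1.89 to 1.94). H2-Q4, a non-classical class I histocompatibility gene, stood at 49.4, 42.8, 48.5 and 46.1 CPM against 67.5, 228, 55.7 and 57.6 CPM, and tag 2 of Brca2mut/WT HU was far above the rest. Gstp1, which encodes a glutathione transferase, stood at 17.1, 22.5, 15.1 and 28.4 CPM against 30.3, 36.7, 28.5 and 58.2 CPM. All of these 3 were higher in every Brca2mut/WT pool, and reads of near-identical copies elsewhere in the genome could be shared with Gm10076, Gstp1 and the H2-Q family, so their levels are uncertain. H2-Q4 lies at chr17:35379617-35385290, plus strand, and Gstp1 at chr19:4035407-4037985, minus strand.

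Among the lower genes with separate pools, Slpi encodes an antimicrobial protease inhibitor that epithelia secrete. It stood at 185, 216, 157 and 272 CPM in wild-type HU and 97.5, 44.4, 77.8 and 55 CPM in Brca2mut/WT HU. Rbp7, a retinoid-binding protein, stood at 1409, 1752, 1304 and 1233 CPM against 976, 32.8, 870.4 and 1134 CPM, and tag 2 of Brca2mut/WT HU was far below the rest. Aldh1a3, which makes retinoic acid and marks luminal progenitors, stood at 26, 38.4, 26.9 and 52.6 CPM against 17.7, 2.65, 22.3 and 22 CPM. Both genes of retinoid handling were lower in every Brca2mut/WT pool. Snhg9, a small nucleolar RNA host gene, stood at 32.5 and 18.7 CPM, Gm8797 at 52.2 and 31.4 CPM, and Rpl9-ps6, a pseudogene of a ribosomal protein, at 27.9 and 16.6 CPM. Gm8797 and Rpl9-ps6 resemble expressed genes closely, so reads could have been split between copies.

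Several of these genes differed in the same way without HU. In the untreated libraries the log2 ratio of Brca2mut/WT over wild type in HR- luminal cells was 0.30 for Gm10076, 0.52 for H2-Q4, 0.70 for Gstp1, -0.76 for Snhg9, -0.61 for Gm8797 and -0.48 for Rpl9-ps6. After HU the log2 ratios were 0.93, 0.84, 0.77, -0.77, -0.72 and -0.71 in the same order. Pools were separate in the untreated libraries as well for Gstp1, Snhg9, Gm8797 and Rpl9-ps6. For Rbp7 the ratio was -0.82 after HU and -0.19 without it, and for Slpi -1.03 and -0.61. Of the 25 genes higher after HU, 16 were past 1.5-fold higher in the untreated libraries and 24 had the same sign. Of the 22 lower genes, 7 were past 1.5-fold lower without HU and 19 had the same sign. Over all genes compared without HU, 0.554% were past 1.5-fold higher and 0.259% lower. Of the genes compared in both settings, 58.5% had the same sign.

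**Figure D2:**
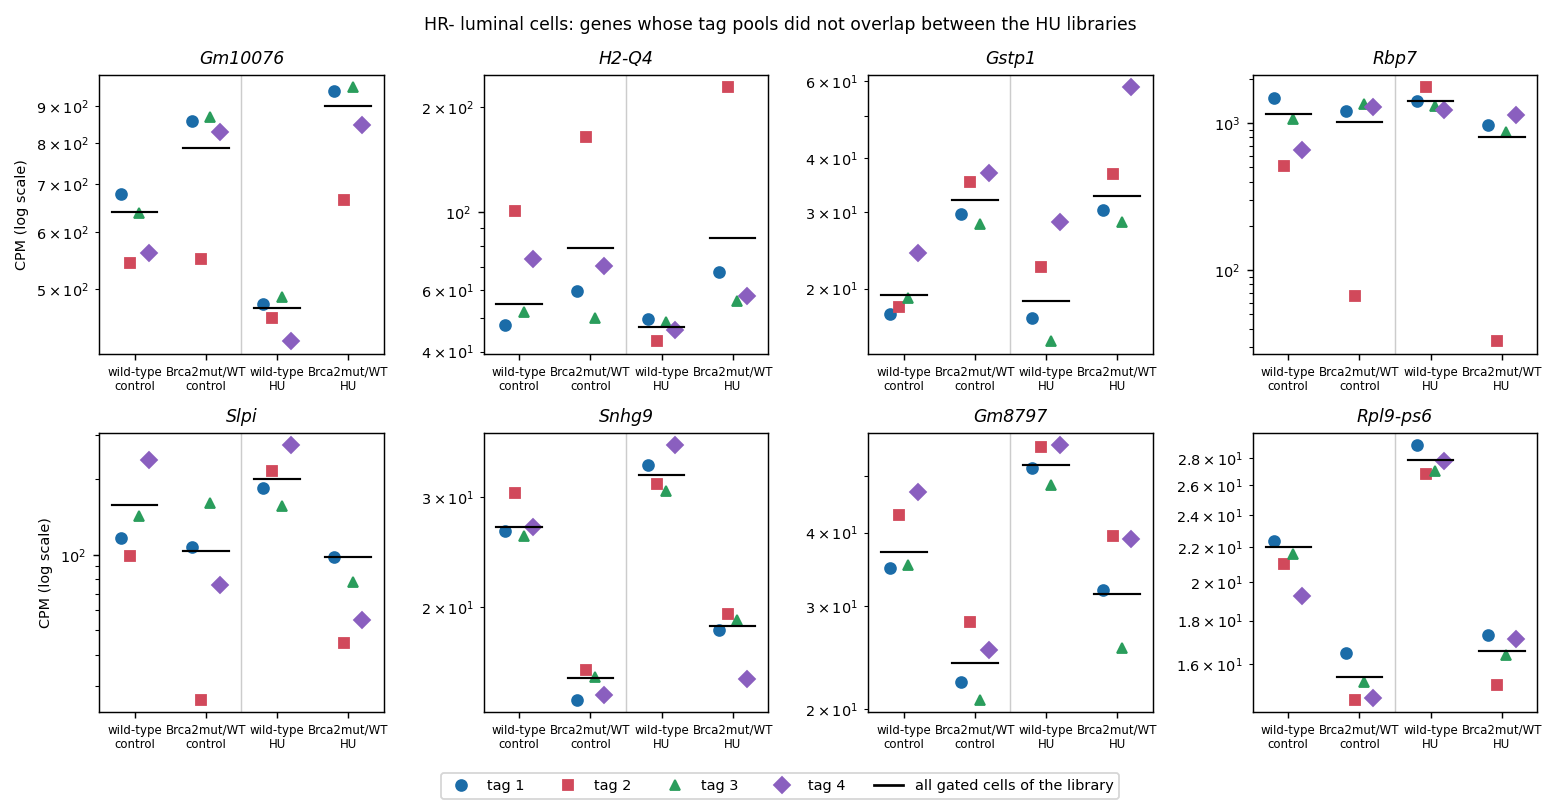
Level in HR- luminal cells (CPM, log axis) of 8 genes whose tag pools did not overlap between the HU libraries; points are the 4 tag pools of each of the 4 libraries and short lines the library level. Gm10076, H2-Q4 and Gstp1 lie higher in each pool of Brca2mut/WT HU, and Rbp7, Slpi, Snhg9, Gm8797 and Rpl9-ps6 lower.

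The largest ratios in HR- luminal cells came from 1 pool, tag 2 of Brca2mut/WT HU, which was also the outlying pool for H2-Q4 and Rbp7. Sez6, a membrane protein best known from neurons, stood at 5.75, 9.88, 6.01 and 26.5 CPM in wild-type HU and 10.8, 323, 10.6 and 17.1 CPM in Brca2mut/WT HU. Tmigd1, an adhesion protein of epithelia, stood at 4.6, 8.87, 4.04 and 30.5 CPM against 7.02, 253, 4.6 and 5.99 CPM. Tspan1, a tetraspanin, stood at 9.45, 9.46, 5.56 and 133 CPM against 21.5, 421, 8.63 and 20.5 CPM. In each of the 3 genes, tags 1, 3 and 4 of Brca2mut/WT HU lay inside the range of the wild-type pools and tag 2 alone stood above it. Fetub at 204 CPM, Gm48882 at 319.9 CPM and Pigr at 112 CPM had their highest pool in the same tag, as did Pipox at 322 CPM, a gene named after its values were seen. Pigr encodes the receptor that carries immunoglobulin A across epithelia.

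The same pool was low in other products of luminal cells. Spp1, which encodes osteopontin, stood at 720.1, 3923, 824 and 5337 CPM in wild-type HU and 656, 27.7, 585 and 1468 CPM in Brca2mut/WT HU. Csn1s1, which encodes alpha-S1-casein, stood at 1916, 821, 1860.4 and 266 CPM against 1083, 23.2, 1209 and 207 CPM. Spp1 was highest in tags 2 and 4 of wild-type HU and Csn1s1 in tags 1 and 3, and both were lowest in tag 2 of Brca2mut/WT HU. The untreated Brca2mut/WT library had an outlying pool of the same number, with tag 2 at 233 CPM for Sez6, 480.3 CPM for Tmigd1 and 27.7 CPM for Spp1, against 57.1, 111 and 703 CPM in that whole library. Tag 2 of wild-type control was outlying for some lists as well. Its matrix genes summed to 1686 CPM in HR- luminal cells, against 4938, 5114 and 3003 CPM in tags 1, 3 and 4. With tag 2 left out of both HU libraries, 9 genes were higher instead of 25, and 7 of the 25 remained among them.

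**Figure D3:**
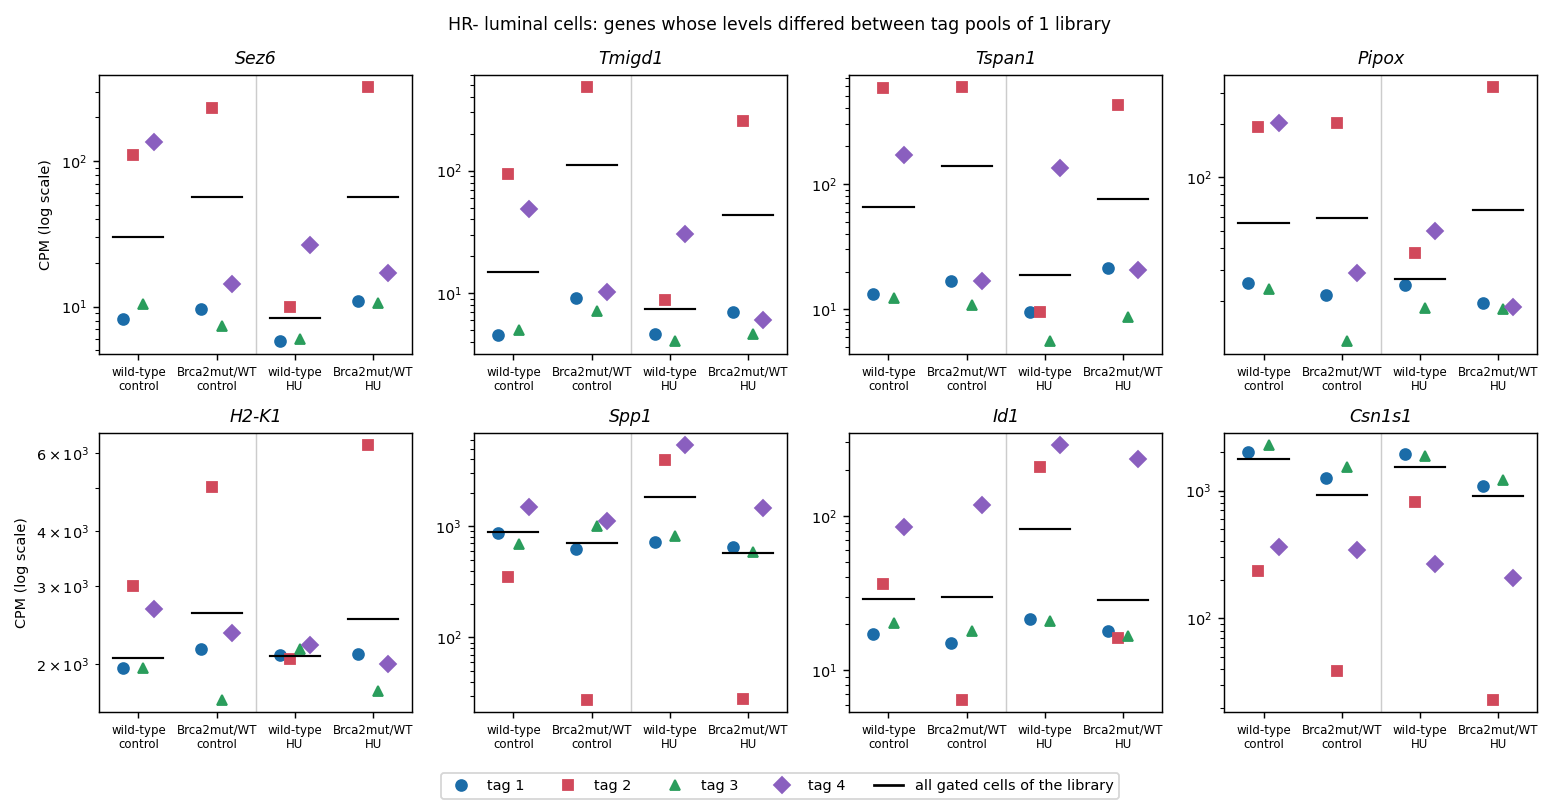
Level in HR- luminal cells (CPM, log axis) of 8 genes whose tag pools vary within a library; points are the 4 tag pools of each library and short lines the library level. Tag 2 of Brca2mut/WT HU and of Brca2mut/WT control stands apart for Sez6, Tmigd1, Tspan1, Pipox, H2-K1 and Spp1, and among the HU pools Id1 is highest in tags 2 and 4 of wild-type HU and tag 4 of Brca2mut/WT HU.

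Interferon-stimulated genes were slightly higher in HR- luminal cells, and tag 2 carried much of that. Of the 22 members compared from a list of 30, 21 had a log2 ratio above 0, as did 3433 of all 5402 genes compared. The median was 0.29, against 0.041 over all genes. Only 2 members were called higher, beside 0.463% of all genes, and none had pools that were both separate and past 1.5-fold. Without HU the median was 0.28, and with tag 2 left out of both HU libraries it was 0.083. With no upper limit on genes and a mitochondrial limit of 10% it was 0.56, so the size depended on the cells used. These relaxed limits took tag 2 from 399 to 1338 HR- luminal cells in Brca2mut/WT HU and from 579 to 977 in wild-type HU. Ifi27l2a, a small mitochondrial protein induced by interferon, stood at 371, 217, 310.2 and 217 CPM in wild-type HU and 377, 1561, 276 and 232 CPM in Brca2mut/WT HU. Oas1a, a sensor of double-stranded RNA, stood at 22, 33.8, 19.8 and 34.8 CPM against 36.4, 81.8, 32.5 and 42.2 CPM. Isg15, a ubiquitin-like modifier, stood at 644, 932, 595 and 803 CPM against 709, 1411, 569 and 735 CPM. For all 3 genes tag 2 of Brca2mut/WT HU was the highest pool, and the other pools overlapped with wild type. For Oas1a, however, tags 1 and 4 of Brca2mut/WT HU also lay above every wild-type pool, and only tag 3 did not. The levels of the whole list summed to between 6473 and 7611 CPM over the wild-type HU pools, and to 6855, 17445, 6128 and 6191 CPM in tags 1 to 4 of Brca2mut/WT HU. Without HU tag 2 was the highest pool in both genotypes. The sums in tags 1 to 4 were 6095, 10542, 6722 and 8921 CPM in wild-type control. In Brca2mut/WT control they were 7007, 13963, 5944 and 8786 CPM.

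Class I antigen presentation went the same way. All 14 members compared had a log2 ratio above 0, as did 3433 of all 5402 genes compared. The median was 0.25 after HU and 0.30 without HU. H2-Q4 and H2-Q6 were the 2 members called higher, beside 0.463% of all genes. H2-K1, a classical class I heavy chain, stood at 2099, 2052, 2162 and 2209 CPM in wild-type HU and 2104, 6246, 1736 and 2001 CPM in Brca2mut/WT HU. Tag 2 alone set that difference, the log2 ratio of H2-Q6 was -0.045 without tag 2 of Brca2mut/WT HU, and without tag 2 in both libraries the list's median was -0.041. The 6 interferon-inducible GTPases compared had a median of 0.41 with none called, and the 9 genes of nucleic acid sensing and signalling a median of 0.15 with none called. With the same relaxed limits on cells these 2 lists had medians of 0.71 and 0.30. Of MHC class II, 2 genes were compared and none was called.

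Genes of alveolar cells and luminal progenitors showed no common shift in HR- luminal cells. Of 16 compared, 2 were higher (Sez6 and Tmigd1), 2 were lower (Aldh1a3 and Ltf), and the median was 0.14. Tspan8, a tetraspanin of luminal cells, stood at 112, 94.7, 101 and 103 CPM in wild-type HU and 113, 384, 86.1 and 49.9 CPM in Brca2mut/WT HU. Thrsp, a regulator of fatty acid synthesis, stood at 93.3, 248, 77 and 209 CPM against 103, 401, 78.6 and 213 CPM. Aqp5, a water channel, stood at 2293, 1315, 2018 and 1727 CPM against 2004, 3571, 1907 and 1018 CPM. None of the 3 passed 1.5-fold, all of them had overlapping pools, and all were highest in tag 2 of Brca2mut/WT HU. Tspan8 and Thrsp had been picked by the study on these samples, so they are no independent sign of a direction.

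Milk proteins and secreted defence proteins did not share a direction. Of 6 milk proteins compared, Csn1s1 and Spp1 were lower, while Lalba, which encodes alpha-lactalbumin, stood at 570.5 and 641 CPM and Csn3 was within 1.5-fold. Of 11 acute phase, antimicrobial and chemokine genes, Slpi, Saa1, Cxcl1 and Csf3 were lower and Pigr was higher. Ltf, the iron-binding milk protein lactoferrin, stood at 90.6, 31.6, 77.6 and 112 CPM against 44.7, 3.53, 23.5 and 4.85 CPM. Csf3, which encodes the granulocyte growth factor G-CSF, stood at 8.8, 32.7, 12 and 59.7 CPM against 7.09, 5.98, 5.88 and 24 CPM. Pools overlapped for Ltf and for Csf3, and without tag 2 of Brca2mut/WT HU the log2 ratio of Pigr was -0.059.

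Among genes that answer DNA damage or replication stress, no difference past 1.5-fold was seen in HR- luminal cells. Of 11 p53 targets compared none was called, with a median log2 ratio of 0.013. Cdkn1a, the p53 target that encodes the p21 inhibitor of cyclin-dependent kinases, stood at 162, 452, 188 and 479.8 CPM in wild-type HU and 202, 550.4, 183 and 568 CPM in Brca2mut/WT HU. Its level followed the tags, at more in tags 2 and 4 than in tags 1 and 3 of both libraries. Id1, an inhibitor of differentiation factors, followed tags 2 and 4 in wild type, at 21.4, 207, 21 and 287 CPM, and tag 4 in Brca2mut/WT HU, at 17.9, 16.3, 16.8 and 234 CPM. Of 11 replication and nucleotide pool genes, 6 mitotic genes, 7 cyclin-dependent kinase inhibitors and G1 cyclins and 9 members of the Bcl2 family, none was called. Only 1 of 27 homologous recombination and Fanconi genes reached 20 CPM, and it was within 1.5-fold. The 6 mitotic genes all had a ratio below 0, with a median of -0.20 after HU and 0.19 without it. The median was 0.13 with no upper limit on genes and a mitochondrial limit of 10%, so its direction depended on the cells used.

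The remaining lists in HR- luminal cells were mixed, beside 0.463% of all genes compared higher and 0.407% lower. None of the 17 genes of fatty acid and cholesterol synthesis and none of the 12 immediate early genes, which mark stress of dissociation, was called. Of 15 hypoxia and glycolysis genes 1 was lower, Ndufa4l2. Of 8 matrix genes 1 was higher, Col4a1, and of 6 smooth muscle genes 2 were higher, Myl9 and Lmod1. Of 6 keratinocyte genes 3 were lower, Krt5, Ly6d and again Ndufa4l2, which both lists hold. The median was -0.47 for the keratinocyte list and 0.39 for the smooth muscle list, and no member called in either had separate pools. No hormone response gene of the 3 compared was called.

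Basal cells differed more between the HU libraries than HR- luminal cells did, on fewer cells. Of 5899 genes compared, 217 were higher in Brca2mut/WT HU (3.68%) and 149 were lower (2.53%). Pools were separate for 37 of the higher genes (0.627%) and 29 of the lower genes (0.492%), and at any size for 309 genes above (5.24%) and 144 below (2.44%). The pools were 4 of wild-type HU, with 101, 294, 84 and 133 cells, and 3 of Brca2mut/WT HU, with 99, 89 and 61 cells, because tag 2 held 13 basal cells. With 337 cells in Brca2mut/WT HU the counting error was larger than in HR- luminal cells. By count, the lists of interferon-stimulated genes, matrix genes and secreted defence proteins held the most higher members of the gene lists followed. That of mitotic genes held the most lower ones. The lists differed in size, with 4 of 5 interferon-inducible GTPases higher against 7 of 20 matrix genes.

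Interferon-stimulated genes were often higher in basal cells. Of 21 compared, 10 were higher, 7 of these with separate pools, and 1 was lower, against 3.68% higher over all genes compared. The median log2 ratio was 0.55, and 0.16 without HU. The levels of the whole list summed to 5014, 4762, 5124 and 4026 CPM in the wild-type pools. They summed to 4872, 5453 and 4389 CPM in the Brca2mut/WT pools, so the summed levels overlapped. Over the libraries the sums were 4491 and 5005 CPM. Ifit1, which binds viral RNA, stood at 61.8, 42.7, 63.5 and 28.3 CPM in the wild-type pools and 82.3, 77.3 and 101 CPM in the Brca2mut/WT pools. All 3 Brca2mut/WT pools lay above all 4 wild-type pools, and the libraries differed 2.12-fold (counting interval 1.91 to 2.35). Usp18, a protease that removes ISG15 from proteins and restrains the interferon receptor, stood at 40.4, 28.6, 43.6 and 31.1 CPM against 45.8, 49.9 and 58.1 CPM. Oas1a stood at 11.1, 17.5, 13.5 and 14 CPM against 19.5, 29.8 and 29.3 CPM. In each of these 3 genes the pools did not overlap, nor did they for Parp14, an antiviral enzyme, at 24 and 43 CPM over the libraries.

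Related gene groups had higher members as well. Of 5 interferon-inducible GTPases compared 4 were higher, 2 with separate pools, and the median was 0.83. The whole list summed to 109, 111, 159 and 92.8 CPM in the wild-type pools. It summed to 165, 156 and 154 CPM in the Brca2mut/WT pools, so the pools overlapped. Gbp2, a guanylate-binding protein that attacks the membranes of intracellular microbes, stood at 12.1, 13, 13.5 and 9.03 CPM against 16.5, 22 and 19.2 CPM, and reads may be shared with its neighbour Gbp2b. Gbp2 and Oas1a were under 20 CPM in each wild-type pool. A list member under 20 CPM in wild-type HU was compared only where Brca2mut/WT HU reached that level. This rule can raise a list's count of higher genes and its median. Of 10 genes of nucleic acid sensing and signalling 4 were higher, 1 of them with separate pools, with a median of 0.56. Dhx58, a helicase that tunes RNA sensing, stood at 19.5, 17.4, 19.9 and 13.1 CPM against 21.6, 25.4 and 37.1 CPM without overlap. Its wild-type pools were likewise all under 20 CPM. Class I antigen presentation had 1 of 14 genes called, H2-Q4, and a median of 0.10. Against the others, Ifi27l2a was lower, at 335 CPM in wild-type HU and 210.2 CPM in Brca2mut/WT HU. The size of the shift depended on which cells were used: the antiviral list's median was 0.31 with no upper limit on genes and a mitochondrial limit of 10%, and 0.31 when only same-numbered tags were weighed against each other.

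Promoters of interferon-stimulated genes typically hold an interferon-stimulated response element, a short stretch that binds transcription factors active after interferon. Of the 10 genes called higher with separate pools from the interferon and sensor lists, 6 had a promoter entry in RefSeq (GRCm38.p6) of 250 bases before to 50 after the start. The core of this element was searched as GAAA followed by 2 bases of any kind and GAAA again, or TTTC likewise on the other strand, overlaps allowed. It stood in the promoters of 5 of these 6 genes. It stood in 3.44% of all 32851 such promoters, in 4.11% of those of 4723 genes compared in basal cells, and in 9 of 20 further members of the interferon and sensor lists with an entry. Because the 6 genes were taken from these lists, a high share was likely beforehand and does not bear on the difference between the libraries. The sequences of 3 of the genes are shown 5′ to 3′ on the gene's own strand, because their levels stood apart in basal cells, with each match in capitals: Ifit1 (chr19:34640639-34640938, plus strand), Gbp2 (chr3:142620413-142620712, plus strand) and Oas1a (chr5:120907476-120907775, minus strand).
Ifit1: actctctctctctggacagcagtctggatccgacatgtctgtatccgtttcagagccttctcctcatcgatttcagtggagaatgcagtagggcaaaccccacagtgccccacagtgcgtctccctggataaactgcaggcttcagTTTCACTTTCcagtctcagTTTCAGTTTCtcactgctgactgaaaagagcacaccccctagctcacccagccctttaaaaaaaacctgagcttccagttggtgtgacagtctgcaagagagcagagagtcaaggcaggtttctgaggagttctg
Gbp2: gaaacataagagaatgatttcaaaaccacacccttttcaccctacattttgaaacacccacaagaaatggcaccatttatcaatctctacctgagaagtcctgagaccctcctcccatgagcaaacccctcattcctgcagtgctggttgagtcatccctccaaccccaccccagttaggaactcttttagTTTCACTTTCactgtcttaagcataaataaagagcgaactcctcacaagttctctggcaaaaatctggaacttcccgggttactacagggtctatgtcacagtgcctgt
Oas1a: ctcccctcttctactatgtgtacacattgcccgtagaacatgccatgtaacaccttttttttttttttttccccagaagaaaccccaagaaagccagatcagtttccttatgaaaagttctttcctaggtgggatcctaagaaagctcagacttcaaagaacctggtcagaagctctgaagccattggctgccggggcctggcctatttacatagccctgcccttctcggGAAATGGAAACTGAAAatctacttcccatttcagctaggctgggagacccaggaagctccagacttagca

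Ifit1 holds 2 matches, of which the first begins 104 bases and the second 85 bases before the start. Gbp2 holds 1 match, 59 bases before the start. In Oas1a the 2 matches overlap each other, beginning 20 and 14 bases before the start. A match of these letters is a description of the sequence and shows no binding, and no binding was measured in these cells.

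**Figure D4:**
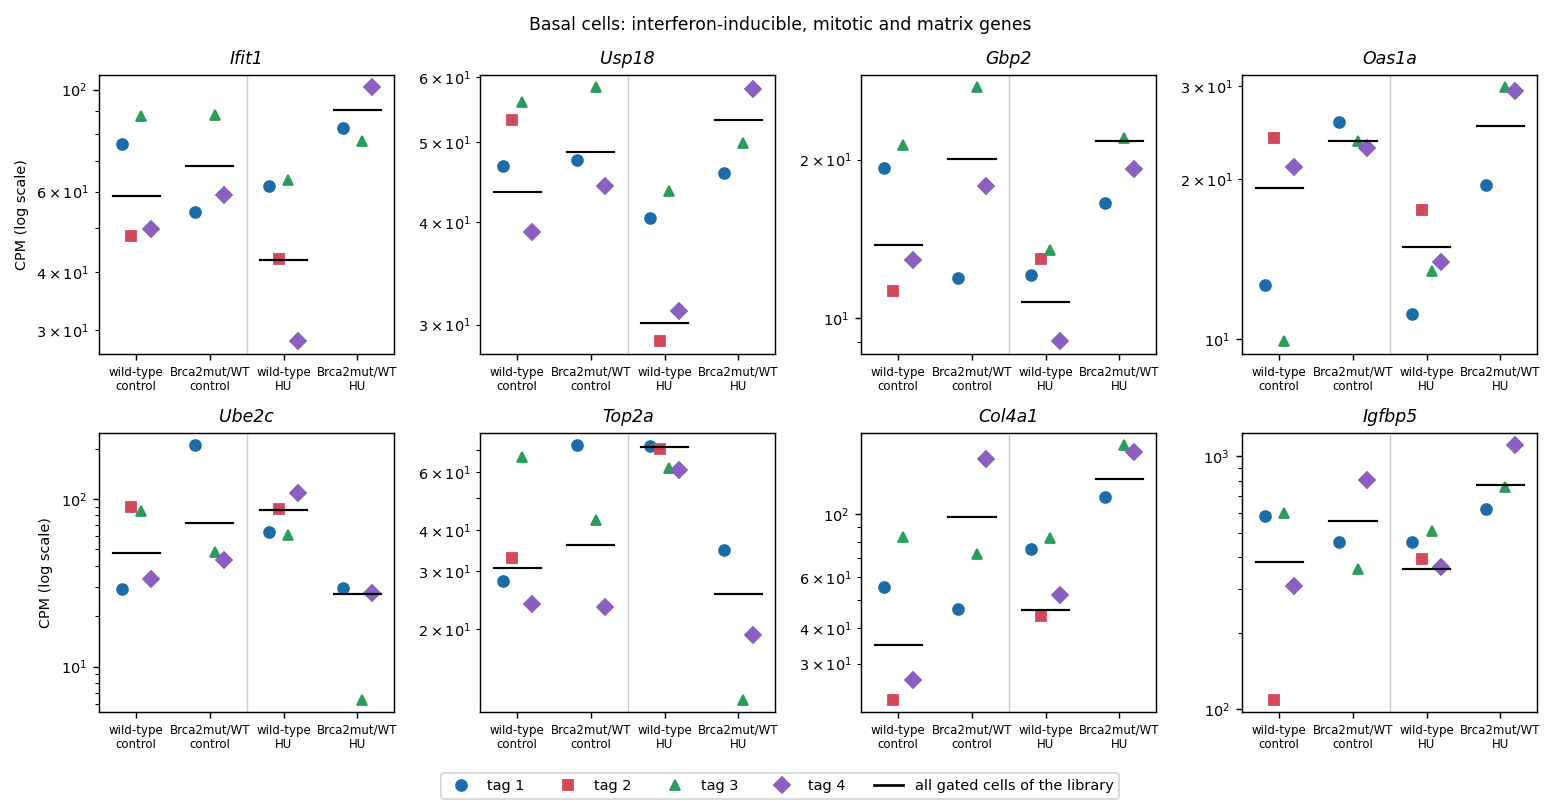
Level in basal cells (CPM, log axis) of 4 interferon-stimulated, 2 mitotic and 2 matrix genes; points are tag pools with at least 20 basal cells, which leaves out tag 2 of both Brca2mut/WT libraries, and short lines the library level. The pools of Ifit1, Usp18, Gbp2, Oas1a, Col4a1 and Igfbp5 lie higher in Brca2mut/WT HU, and those of Ube2c and Top2a lower.

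Mitotic genes were lower in basal cells of Brca2mut/WT HU. Of 14 compared 13 were lower, 5 with separate pools, against 2.53% lower over all genes compared, and the median log2 ratio was -1.0, while it was 0.19 without HU. Ube2c, which feeds ubiquitin to the anaphase-promoting complex, stood at 63.2, 86.8, 61 and 109 CPM in the wild-type pools and 29.3, 6.36 and 27.5 CPM in the Brca2mut/WT pools. Top2a, the topoisomerase of dividing cells, stood at 72, 70.8, 61.6 and 60.7 CPM against 34.8, 12.2 and 19.2 CPM. The pools did not overlap for either gene. Cdk1, the kinase that starts mitosis, stood at 39.5, 49.4, 45.6 and 60.1 CPM against 27.6, 15.7 and 20.3 CPM, and Hist1h1b, a replication-dependent linker histone, at 113, 96.4, 70.6 and 74.4 CPM against 39, 16.1 and 48.5 CPM. Mki67, the proliferation marker, stood at 38.1, 51.1, 37.2 and 45.8 CPM against 36.1, 9.78 and 53.3 CPM with overlapping pools. A member of the mitotic list under 20 CPM in Brca2mut/WT HU was compared only where wild-type HU reached that level. This rule can raise the list's count of lower genes and push its median down.

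The mitotic difference was not there when 2 limits on cells were relaxed together, with no upper limit on genes and up to 10% mitochondrial UMIs. The median of the mitotic list in basal cells was 0.025, and Ube2c, Ccna2, Ccnb1 and Prc1 had ratios of 0.078, 0.011, 0.075 and 0.014. Over 6000 genes were 1990 cells of wild-type HU and 2376 of Brca2mut/WT HU, whichever their lineage. Replication genes were lower by less, with 5 of 22 compared called lower, 1 of them with separate pools, and a median of -0.32 that was -0.062 with the 2 limits relaxed; Tyms, which makes thymidylate, stood at 72.3 and 41.6 CPM and Rrm2, the subunit of the enzyme that HU blocks, at 55.8 and 29.1 CPM. Cyclins Ccnd1 and Ccnd2 were the 2 of 7 cyclin-dependent kinase inhibitors and G1 cyclins called lower, and over same-numbered tags the log2 ratio of Ccnd1 was 0.00496.

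Matrix genes were higher in part. Of 20 compared 7 were higher, 4 with separate pools, and 2 were lower, with a median of 0.27. Over all genes compared 3.68% were higher, 0.627% with separate pools, and 2.53% were lower. Col4a1, a chain of basement membrane collagen, stood at 75.2, 44.1, 82.1 and 52 CPM against 115, 174 and 165 CPM. Igfbp5, which binds insulin-like growth factors, stood at 457, 393, 507 and 366 CPM against 619, 759.7 and 1105 CPM, and Postn, the matrix protein periostin, at 157, 60.4, 52 and 150.1 CPM against 158, 163 and 257 CPM. All 3 were higher in each Brca2mut/WT pool, and the range within a library was wide for Postn. Against these, Mgp, an inhibitor of calcification, stood at 494, 1110.1, 756 and 682 CPM against 520.2, 386 and 780.4 CPM. With pools weighted equally the log2 ratio of Mgp was 0.015. Weighing only same-numbered tags against each other brought the list's median to 0.082. Oxtr, the oxytocin receptor through which basal cells contract at milk let-down, stood at 10.2, 16.5, 6.42 and 11.5 CPM against 20.8, 23 and 25.7 CPM without overlap, the only 1 of 10 smooth muscle genes called. Oxtr was under 20 CPM in each wild-type pool, so it may have been compared only because Brca2mut/WT HU reached that level.

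Keratinocyte genes were lower in part and secreted defence proteins higher in part. Of 21 basal and squamous keratinocyte genes 7 were lower, none was higher, and the median was -0.40. Calm4, a calmodulin-like protein of squamous cells, stood at 5.57, 19.1, 59.7 and 19 CPM against 0, 0 and 10.8 CPM, with overlapping pools and 35.5 and 2.46 CPM over the libraries. Members such as Calm4, under 20 CPM in Brca2mut/WT HU, were compared only because wild-type HU reached that level. This can raise the list's count of lower genes. Of 10 acute phase, antimicrobial and chemokine genes 5 were higher with a median of 0.69, which was -0.075 over same-numbered tags. Cxcl5, a chemokine for neutrophils, stood at 41.3, 33.9, 44.9 and 31.4 CPM against 80.6, 66 and 212 CPM and was the only 1 of the 5 with separate pools. Of 16 hypoxia and glycolysis genes 4 were higher with a median of 0.36, which was -0.084 over same-numbered tags. Tspan8 was lower in basal cells, at 19.97, 40.4, 10.9 and 14.6 CPM against 9.76, 9.3 and 7.18 CPM with separate pools. It was under 20 CPM in each Brca2mut/WT pool, so it may have been compared only because wild-type HU reached that level.

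Of the other lists in basal cells, that of alveolar and luminal progenitor genes held the most calls. Over all genes compared, 3.68% were higher and 2.53% lower. Of 11 p53 targets, 9 Bcl2 family members, 16 genes of fatty acid and cholesterol synthesis and the 2 homologous recombination and Fanconi genes compared, none was called. Of 10 alveolar and luminal progenitor genes 4 were higher and 1 was lower, with a median of 0.36 that was -0.34 when basal cells were gated by Krt5. Of 6 milk proteins 1 was lower, Csn1s1. Of 6 hormone response genes 1 was higher, Prlr, whose log2 ratio was -0.66 with the 2 limits on cells relaxed and -0.64 when basal cells were gated by Krt5. Of 13 immediate early genes 2 were lower, Fos and Dusp1, with ratios of 0.20 and 0.44 when the tag pools were weighted equally. The 1 gene of MHC class II compared was not called.

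**Figure D5:**
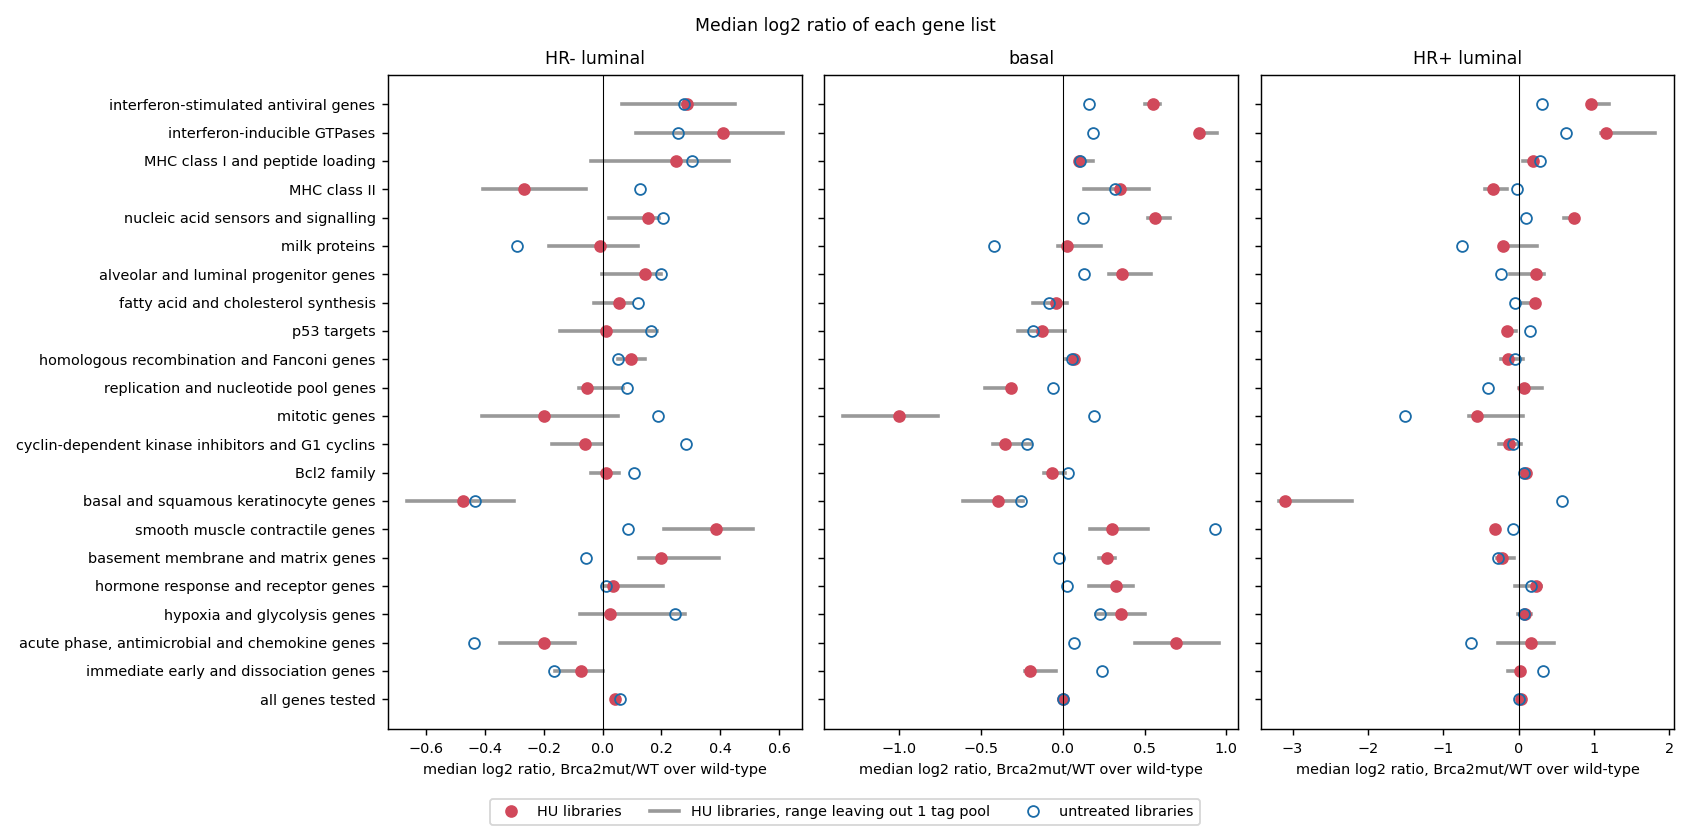
Median log2 ratio of Brca2mut/WT over wild type for each gene list, in the 3 lineages, with red points for the HU libraries, open blue points for the untreated libraries and grey bars for the range over leaving out each tag of a library in turn. The interferon lists stand among the highest in HR+ luminal and basal cells after HU and the mitotic list lowest in basal cells, at -1.0, while the keratinocyte list stands at -3.10 in HR+ luminal cells.

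HR+ luminal cells were the fewest, and their tag pools could hardly be compared, with 80 and 22 cells in tags 2 and 4 of wild-type HU and 54 cells in tag 4 of Brca2mut/WT HU. Of 6065 genes compared, 249 were higher in Brca2mut/WT HU (4.11%) and 222 were lower (3.66%). Interferon-stimulated genes were again higher, at 17 of 24 compared, with 1 lower, Ifi27l2a, and a median of 0.97 after HU and 0.31 without it. With HR+ cells gated by Prlr, the log2 ratio of Ifi27l2a was 1.24. Ifit3, a partner of Ifit1, stood at 44.1 and 5.21 CPM in the wild-type pools and 187 CPM in the Brca2mut/WT pool. Ifit1 stood at 52.2 and 13.9 CPM against 224 CPM, and Isg15 at 303 and 151 CPM against 593 CPM. The whole libraries add the untagged cells, the cells with multiple tags and the smaller pools. They stood at 27.4 and 203 CPM for Ifit3, 35.8 and 190.5 CPM for Ifit1 and 254 and 681 CPM for Isg15. All 6 GTPases compared were higher, with a median of 1.16, and 6 of 11 sensing and signalling genes, with a median of 0.74.

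Some genes of this response were low or had no UMI in wild-type HU. Those under 20 CPM there were compared only because Brca2mut/WT HU reached that level. Cmpk2, a mitochondrial nucleotide kinase induced by interferon, stood at 4.23 CPM against 58 CPM, and Rsad2, the antiviral enzyme viperin, at 30.3 CPM against 185 CPM. Ccl5, a chemokine for T cells, had no UMI in wild-type HU and 388 UMIs in Brca2mut/WT HU, which at a floor of 3 UMIs per library was at least 198-fold higher. Ccl2, a chemokine for monocytes, had no UMI against 145 UMIs and was at least 74.2-fold higher. Gated by Prlr instead of Areg, Ccl5 had a log2 ratio of -0.76, so its direction depended on which cells counted as HR+.

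Keratinocyte genes were lower in HR+ luminal cells of Brca2mut/WT HU, and in wild-type HU single pools held most of their UMIs. Of 17 compared 14 were lower, with a median of -3.10, and -0.88 when HR+ cells were gated by Prlr. Members under 20 CPM in Brca2mut/WT HU, among them Krt5 and Krtdap, were compared only because wild-type HU reached that level. This rule can raise the count of lower genes and push the median down. Slurp1, a secreted protein of squamous epithelium, stood at 0.803 and 1142 CPM in wild-type tags 2 and 4 and 0.608 CPM in tag 4 of Brca2mut/WT HU. Krtdap, a protein of differentiating keratinocytes, stood at 144 and 6.94 CPM against 0.608 CPM. Krt5 stood at 318 CPM in the wild-type library and 11.3 CPM in the Brca2mut/WT library. Krt14, a gate gene, stood at 1842 and 135 CPM there, so basal transcripts were in the wild-type HR+ gate. With the cells that met both gates left out, the log2 ratio of Krt5 went from -4.70 to -1.97 and that of Krtdap from -5.03 to -1.97, while that of Ifit1 went from 2.38 to 2.19. With no upper limit on genes and up to 10% mitochondrial UMIs, that of Krtdap was 0.44.

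Hormone response genes went both ways in these cells. Of 13 compared 3 were higher and 4 were lower, with a median of 0.23. Pgr, the progesterone receptor, stood at 58.3 and 112 CPM and Esr1, the oestrogen receptor, at 16.5 and 34.8 CPM; both were named after their values were seen. Without HU the levels were 125 and 125 CPM for Pgr and 26.2 and 25 CPM for Esr1, close between the genotypes. Counts in other lists stood against 4.11% higher and 3.66% lower over all genes compared. Mitotic genes had 2 of 5 lower, matrix genes 1 of 14 higher and 4 lower, acute phase and chemokine genes 4 of 11 higher and 3 lower, and p53 targets 1 of 15 lower. Replication genes had 2 of 11 lower, class I presentation 2 of 14 higher, MHC class II 1 of 2 lower, milk proteins 2 of 4 lower, alveolar genes 1 of 7 higher and 1 lower, cyclin-dependent kinase inhibitors and G1 cyclins 2 of 8 lower, and smooth muscle, hypoxia, immediate early, Bcl2 family and fatty acid genes 1 lower each.

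A few genes were called in all 3 lineages. Among them, Gm10076, H2-Q4, Gstp1 and Oas1a were higher in each, and Csn1s1, Gm8797 and Rbp7 were lower in each. The log2 ratio of Gm10076 was 0.93, 0.88 and 0.94 in HR- luminal, basal and HR+ luminal cells. That of Rbp7 was -0.82, -0.64 and -0.94, and that of Oas1a 0.78, 0.72 and 1.29. Between basal and HR+ luminal cells 45 higher genes were shared, 20.7% of the basal and 18.1% of the HR+ genes, while HR- luminal cells shared 9 of their 25 with basal and 8 with HR+ cells. Lineages of 1 library share their free RNA and their mice, so they are not independent of one another.

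Set beside the untreated libraries, the genotype ratios were partly alike in HR- luminal and basal cells. Across 5275 genes compared in both settings in HR- luminal cells the HU and untreated log2 ratios had a Pearson correlation of 0.44 and a Spearman correlation of 0.20. In basal cells, over 5574 genes, they were 0.41 and 0.43, and in HR+ luminal cells, over 5771 genes, 0.092 and 0.11. These are correlations across genes of the same 4 libraries, and genes are not independent replicates. Of the 217 genes higher in basal cells after HU, 41 were past 1.5-fold higher without HU and 3 past 1.5-fold lower. Of the 149 lower genes 25 were lower and 6 higher. The untreated libraries themselves differed at 30 genes higher (0.554%) and 14 lower (0.259%) in HR- luminal cells, and at 89 higher (1.53%) and 66 lower (1.13%) in basal cells. Whether HU changed the genotype difference could not be tested with 1 library in each of the 4 groups.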

How the data were processed

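Organoids were dissociated and run as 4 droplet libraries, 1 for each genotype and treatment. The authors deposited for each library a matrix of UMI counts per gene and cell, made with Cell Ranger (6.0.2 in the submitters' processing notes, 6.1.1 in the file headers) against mouse mm10, with 4 antibody tags as further features. The series' design text gives 34200 cells, the deposited matrices hold 33268 barcodes, and the filter left 17360, with 3293 to 5312 cells and 82186830 to 126866429 gene UMIs per library.

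From these counts, UMIs were summed over the cells of a gate and library and divided by the gate's total to give CPM. A cell was given a tag where it had at least 50 tag UMIs and 80% of them on 1 tag, and was called multiple where a second tag held over 20%. No doublet caller was run. Doublets were limited by the upper limit on genes and, in an alternative only, by keeping single-tag cells. The main results kept cells with multiple tags, 168 in wild-type HU and 187 in Brca2mut/WT HU. Poisson and Clopper-Pearson 95% intervals cover counting error only. Genes were placed by ID in GENCODE M21, where 32158 of 32285 matched. Scripts ran in Python 3.11.15, numpy 2.4.6, scipy 1.17.1 and pandas 2.3.3, and TMM factors came from edgeR 4.0.16 in R 4.3.3. The comparison was tested on simulated data.

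The cells compared, the 22 gene lists and the rule for named genes were chosen with earlier results of these data known. The rule took the called genes with the largest ratios in each direction, those with separate pools first, 10 in HR- luminal, 6 in basal and 4 in HR+ luminal cells, with Brca2, Tspan8, Thrsp and Aqp5 and up to 5 members of largest ratio and 3 of highest level per list. Some genes that meet the rule or belong to the lists are counted but not reported here by name.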

Additional observations from a re-analysis of the deposited data

Results flagged for a closer look

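A few genes were called in opposite directions in HR- luminal and basal cells of the HU libraries. Each value is the log2 ratio of Brca2mut/WT HU over wild-type HU in HR- luminal cells minus that in basal cells, and with 1 library a group none of these differences was tested. For Ltf, which encodes lactoferrin, it was -2.88, with 75.8 and 28.4 CPM in HR- luminal and 6.76 and 20.9 CPM in basal cells. For Id3 it was -2.41, with 26.2 and 8.87 CPM against 33.3 and 65.1 CPM, and for Csf3 it was -2.32, with 20.6 and 7.31 CPM against 19.9 and 39.1 CPM. For Clu, which encodes the chaperone clusterin, it was -1.74, with 272 and 171 CPM against 114 and 241 CPM. Ifi27l2a went the other way, at 1.45, with 299 and 512 CPM against 335 and 210.2 CPM. The basal log2 ratio of Ltf was -1.78 with basal cells gated by Krt5, that of Csf3 was -0.15, and that of Id3 was -0.024 over same-numbered tags.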

How the results depend on the processing

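No paired analysis was possible because each group is 1 library and the tags carry no key that would pair them. Alternatives with same-numbered tags and with tag 2 left out were chosen after seeing the data. No value here has a replicate check, and with 140 to 174 HR+ luminal cells a library depth limits that lineage most.

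Counting genes from 1 CPM gave 87 higher and 69 lower in HR- luminal, 734 higher and 596 lower in basal and 1012 higher and 1334 lower in HR+ luminal cells. With both limits on cells relaxed, to no upper limit on genes and 10% mitochondrial UMIs, the counts were 99 higher and 41 lower, 93 higher and 83 lower, and 90 higher and 90 lower, and of the 217 and 149 basal genes 54 and 50 remained called. A pseudocount of 10 CPM gave 131 higher and 98 lower in basal cells and 132 higher in HR+ luminal cells. Weighting tag pools equally gave 69 higher in HR- luminal cells and 1005 higher and 600 lower in HR+ luminal cells. Same-numbered tags gave 50 lower in HR- luminal and 65 higher in basal cells, and without tag 2 in both libraries 9 were higher in HR- luminal cells. TMM scaling kept each of these counts within 1.5 times.

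Leaving out each tag in turn gave 10 to 68 genes higher and 20 to 41 lower in HR- luminal, 172 to 317 and 100 to 282 in basal, and 247 to 363 and 212 to 295 in HR+ luminal cells. For higher genes in HR- luminal cells the value was 10 without tag 2, 58 without tag 1 and 68 without tag 3 of Brca2mut/WT HU. For lower genes it was 41 without tag 3 of wild-type HU, and in basal cells 282 without tag 4 of Brca2mut/WT HU. Shares ranged over 66.9 to 78.7% in wild-type HU and 80.6 to 86.1% in Brca2mut/WT HU for HR- luminal cells, 16.5 to 25.6% and 9.05 to 11.3% for basal cells, and 2.57 to 5.2% and 2.82 to 6.24% for HR+ luminal cells.

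The HR- luminal share of wild-type HU was 71.8% with both limits relaxed, 80.05% over single-tag cells and 69.5% under the other gate. That of Brca2mut/WT HU was 85.3% over cells with at least 5000 UMIs, 86.5% over single-tag cells, 80.9% with pools weighted equally and 78.4% under the other gate. Basal shares were 15.5% over single-tag cells and 23.1% under the other gate in wild-type HU, and 11.5% with equal weights and 12.8% under the other gate in Brca2mut/WT HU. HR+ luminal shares of wild-type HU were 6.57% with both limits relaxed, 3.04% over single-tag cells, 2.32% under the other gate and 3.18% without cells of 2 gates. Those of Brca2mut/WT HU were 5.9%, 3.41% over cells with at least 5000 UMIs, 2.51% over single-tag cells, 6.2% with equal weights and 2.88% under the other gate.

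Of 169 named calls, 34 changed sign under an alternative and 135 under none. The log2 ratios that did so are given by lineage. Without tag 2 of Brca2mut/WT HU, the HR- luminal ratios were Gm48882 -0.27, H2-Q6 -0.045, Pigr -0.059 and Tspan1 -0.033. Without tag 2 in both libraries, the ratios were Gm48882 -0.23, H2-Q6 -0.046, Pigr -0.19 and Tspan1 -0.19. With both limits relaxed, the basal ratios were Ccna2 0.011, Ccnb1 0.075, Ltf -1.44, Prc1 0.014, Prlr -0.66, S100a8 -0.15 and Ube2c 0.078. Over same-numbered tags, the ratios were Ccnd1 0.00496, Egln3 -0.38, Ero1l -0.32, Id3 -0.024, S100a8 -0.76, Tesc -0.50 and Vegfa -0.081. Under the other gate, the ratios were Csf3 -0.15, Ltf -1.78 and Prlr -0.64. With pools weighted equally, the ratios were Dusp1 0.44, Fos 0.20, Mgp 0.015 and S100a8 -1.13. Over single-tag cells, the ratio was S100a8 -0.81. With pools weighted equally, the HR+ luminal ratios were Aldh1a3 0.12, Cdkn2a 0.55, Cxcl1 0.064 and Cxcl5 0.89. Under the other gate, the ratios were Aldh1a3 0.011, Ccl5 -0.76, Ifi27l2a 1.24, Ndufa4l2 0.63 and Sparc 0.24. Without tag 4 of wild-type HU, the ratio was Aldh1a3 0.18. Without tag 4 of Brca2mut/WT HU, the ratios were Aldh1a3 0.064, Rrm2 0.11 and Timp3 0.037. Without cells of 2 gates, the ratio was Cxcl5 1.01. Without tag 2 of wild-type HU, the ratio was Cxcl5 0.83. Without tag 2 in both libraries, the ratios were Cxcl5 0.89, H2-Q6 -0.22 and Trf -0.056. With both limits relaxed, the ratios were Krtdap 0.44 and Rrm2 0.33. Over leaving out each tag in turn, these ratios ranged from -0.27 to 1.89 for Gm48882 in HR- luminal cells, -0.045 to 1.05 for H2-Q6 in HR- luminal cells, -0.059 to 1.40 for Pigr in HR- luminal cells, -0.033 to 3.09 for Tspan1 in HR- luminal cells, -1.39 to 0.18 for Aldh1a3 in HR+ luminal cells, -4.38 to 0.83 for Cxcl5 in HR+ luminal cells, -0.86 to 0.11 for Rrm2 in HR+ luminal cells, -1.55 to 0.037 for Timp3 in HR+ luminal cells. The causes of these changes were not tested.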

Other observations

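Some basal levels varied widely between the pools of a library, and these genes were named after their values were seen. Scgb1a1, the secretoglobin of airway club cells, stood at 1.39, 0.712, 0 and 4.36 CPM in wild-type HU and 0, 1.96 and 156 CPM in tags 1, 3 and 4 of Brca2mut/WT HU. Sparcl1, a matricellular protein, stood at 370.2, 75.3, 583 and 74.1 CPM against 642, 1289 and 179.5 CPM, and Klk6, a serine protease, at 0, 79.3, 0.642 and 3.42 CPM against 0.424, 0.489 and 2.99 CPM. Apoe, the lipid carrier, had separate pools instead, at 849, 309, 894 and 529 CPM against 989, 936 and 929 CPM.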
